A study of Mus musculus with 27 samples.

Results

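The genes described here are 7 receptors for lysophospholipids, namely Lpar1, Lpar3, Lpar4 and Lpar6 for lysophosphatidic acid (LPA) and S1pr1, S1pr2 and S1pr3 for sphingosine-1-phosphate (S1P). They were taken by symbol from a table of 40129 genes, in which all 7 were found and all 7 passed the filter on low values that left 27137 genes. The set was drawn up because Lpar3 was lower in OIR mice at p17, so the comparison of OIR with nOIR mice at p17 is given as a description without a test for every one of the 7, and so are the changes of Lpar3 with age. The 4 groups were whole retinas of wild-type C57BL/6 mice (C57BL/6J in the study's methods), which differed in oxygen exposure and age. In the oxygen-induced retinopathy (OIR) model, pups breathe high oxygen, lose central retinal vessels and are then returned to room air, where the ischemic retina grows new vessels. Controls (nOIR) stayed in room air throughout. At day 14 of life there were 6 nOIR and 6 OIR mice, and at day 17 there were 6 nOIR and 8 OIR mice. Another nOIR p14 mouse (S4), set aside for its lens gene reads, was left out. It had 6142 normalized reads of the lens gene Cryaa, whereas 4 of the mice kept had more, namely nOIR p14 S5 (6771) and OIR p17 S2 (12404), S7 (7456) and S8 (8876). A library held 1 retina or both retinas of a mouse, and since mice of a group shared litters that are not given per mouse, p-values measure only the spread between these mice.

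LPA and S1P are small signalling lipids made from membrane lipids by extracellular and intracellular enzymes. Their receptors cross the membrane and pass the signal to heterotrimeric G proteins, the Gi, Gq and G12/13 families, the last of which act on small GTPases and the cytoskeleton. In vessels, S1PR1 is known for tightening junctions between endothelial cells, whereas S1PR2 and S1PR3 also act in mural cells and can signal to the cytoskeleton. LPAR4 and LPAR6 belong to a branch of LPA receptors that resembles purinergic receptors and have been tied to vessel formation, while LPAR1 and LPAR3 belong to the endothelial differentiation gene branch.

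Values are normalized reads, which are reads counted on a gene and divided by 1 size factor per mouse. The libraries held between 17029536 and 33593428 recovered reads each. Rod markers, whose summed level ranged from 1005000 to 1804000 normalized reads over the 26 mice, were found in every library, in keeping with retina as the labelled tissue. The libraries were not alike within groups. In 8 mice (nOIR p14 S5 and S6, OIR p14 S3 and S5, OIR p17 S3, S6, S7 and S8), Rb1 had 417.8 to 1194 normalized reads, against 1516 to 2261 in the other 18 mice. None of the 8 was an nOIR p17 mouse. Results on the receptors were therefore also computed without them, an alternative chosen after seeing the data. Since whole retinas were measured, fewer cells of a type and less RNA per cell cannot be told apart in any value below.

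Per kb of exon, S1pr1 and S1pr3 had the highest levels of the 7 receptors in every group. In nOIR p14 retinas, S1pr1 had 529.4 ± 63.6 normalized reads per kb (SD, n = 6) and S1pr3 had 358.5 ± 89.0. Lpar1 followed at 41.6 ± 4.29, Lpar6 at 23.9 ± 4.55 and S1pr2 at 14.6 ± 0.55 normalized reads per kb. At the lower end, Lpar3 at 8.27 ± 5.06 and Lpar4 at 6.58 ± 4.01 normalized reads per kb did not differ beyond their spread. The order was not the same in OIR retinas. S1pr3 was above S1pr1 in mean level in OIR p14 (451.3 ± 64.1 against 357.8 ± 47.2 normalized reads per kb, SD, n = 6) and in OIR p17 mice (564.5 ± 89.8 against 486.3 ± 84.3, SD, n = 8). In both groups the spans of mean ± SD overlapped. All 7 receptors were measured in the same mice, and their order within single mice was not compared. Lpar6 and Lpar1, at 37.4 ± 7.71 and 34.8 ± 6.97 normalized reads per kb in OIR p14 mice, did not differ beyond their spread. Lpar3 was the lowest of the 7 in both OIR groups, at 3.22 ± 2.18 and 1.96 ± 2.16 normalized reads per kb. In nOIR p17 mice it ranked 5 of the 7 with 12.9 ± 6.12 normalized reads per kb, not apart from S1pr2 at 11.6 ± 1.75 normalized reads per kb (SD, n = 6). Exon lengths come from GENCODE M21, whereas reads had been counted on GENCODE M28.

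**Figure D1:**
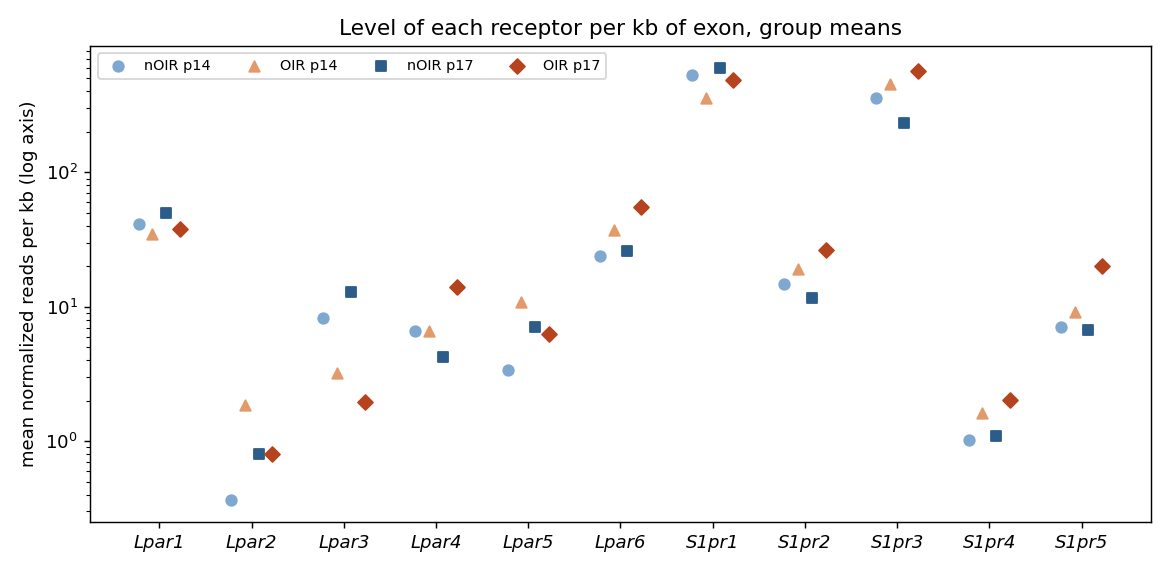
Mean normalized reads per kb of exon (log axis) for the 7 receptors and the other 4 receptors of the same families (Lpar2, Lpar5, S1pr4, S1pr5), with 1 marker per group. S1pr1 and S1pr3 lie far above the others in all 4 groups, and Lpar3 is lowest of the 7 in both OIR groups.

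The receptors were compared in sequence, since reads of near-identical genes can be split in counting. By global alignment of the longest GENCODE M21 coding sequences, the pair with the highest identity was S1pr1 and S1pr3 at 67.2%, and the lowest was Lpar3 and Lpar4 at 59.7%. No pair of receptors shared an exact run of over 42 bases in transcripts read in the same direction. Coding lengths ranged from 1035 bases for Lpar6 to 1149 bases for S1pr1. Lpar3 and S1pr1 lie on chromosome 3, Lpar1 on 4, S1pr2 on 9, S1pr3 on 13, Lpar6 on 14 and Lpar4 on X. Lpar6 lies within Rb1 on the opposite strand, and 408 bases of its exons fall inside Rb1 exons. S1pr3 overlaps the antisense gene Gm32834, and Lpar1 overlaps Gm12577 and Mir3095 on its own strand. Counting did not use strand, and at its default settings a read that overlaps exons of more than 1 gene is given to none, so reads from those shared exon stretches would be missing from the receptors. Reads of unspliced Rb1 RNA in the rest of the Lpar6 exons cannot be told apart from reads of Lpar6.

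The stretch of 250 bases before the transcription start is printed for Lpar3, whose OIR values were low, and for the 3 receptors whose OIR p17 mice all lay above the nOIR p17 mice, so that what precedes genes of opposite direction can be read side by side. The sequences are from RefSeq on build GRCm38.p6, at chr3:146220711-146220960 (plus strand) for Lpar3, chr14:73237641-73237890 (plus strand) for Lpar6, chr9:20976794-20977043 (minus strand) for S1pr2 and chr13:51408368-51408617 (plus strand) for S1pr3. Each runs 5′ to 3′ on the strand of its gene. Capitals mark matches to ACGTG, the core letters of the element bound by hypoxia-inducible factors, or to GCGTG, its common variant, on either strand.
Lpar3: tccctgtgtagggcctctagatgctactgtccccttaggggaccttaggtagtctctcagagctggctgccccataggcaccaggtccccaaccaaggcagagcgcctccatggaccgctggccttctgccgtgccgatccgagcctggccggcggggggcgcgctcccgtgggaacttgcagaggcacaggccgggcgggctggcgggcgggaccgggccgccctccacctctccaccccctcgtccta
Lpar6: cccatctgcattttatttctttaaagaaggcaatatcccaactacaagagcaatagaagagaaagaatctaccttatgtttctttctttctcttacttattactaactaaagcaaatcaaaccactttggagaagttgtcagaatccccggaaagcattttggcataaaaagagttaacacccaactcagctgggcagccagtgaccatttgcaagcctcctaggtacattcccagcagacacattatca
S1pr2: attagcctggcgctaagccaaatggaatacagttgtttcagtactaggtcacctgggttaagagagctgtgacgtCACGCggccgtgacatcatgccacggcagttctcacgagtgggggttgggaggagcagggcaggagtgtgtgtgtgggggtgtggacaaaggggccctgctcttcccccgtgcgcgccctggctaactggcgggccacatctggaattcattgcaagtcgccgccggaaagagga
S1pr3: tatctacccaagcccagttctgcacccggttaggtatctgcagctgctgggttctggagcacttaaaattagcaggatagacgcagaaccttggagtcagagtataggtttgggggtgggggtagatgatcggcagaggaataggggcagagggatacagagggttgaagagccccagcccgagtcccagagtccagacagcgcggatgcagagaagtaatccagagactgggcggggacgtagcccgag
ACGTG was found in none of these 4 windows and GCGTG in that of S1pr2 alone, on the reverse strand. Of the 32851 windows of this length in the table, 16.6% held ACGTG, 28.2% held GCGTG and 38.6% held either. In all, 6 of the 7 receptors had at least 1 window. The window of Lpar4 held neither motif, while GCGTG stood in those of 2 of the 3 Lpar1 starts. GC content was 69.6% before Lpar3, above that of 90.2% of the windows, and 39.2% before Lpar6, above that of 10.3%. These are matches of letters in short windows and no measurement of binding.

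Lpar3 had few reads in OIR retinas at both ages. In nOIR p17 mice, its normalized reads were 28.8, 23.8, 10.6, 54.0, 42.7 and 30.8. In OIR p17 mice they were 6.22, 0.91, 0, 0.99, 11.8, 4.13, 13.7 and 0.89. Of these 8 mice, 2 (S5 and S7) lay above the lowest control, nOIR p17 S3, and the other 6 lay below all controls. Without nOIR p17 S3, the groups did not overlap. The mean over the 6 controls was 31.8 ± 15.1 normalized reads (SD) and over the 8 OIR p17 mice 4.83 ± 5.33 (SD), which is 6.57 times as high in the controls. The log2 fold change, on the scale of log2(normalized reads + 1), was -2.93 (standard error, SE, 0.60). With so few reads the pseudocount bears on this value, which was -3.71 with a pseudocount of 0.1, -2.68 by edgeR and -2.72 by DESeq2 on whole reads. The mouse listed at 0, OIR p17 S3, allows up to 2.88 normalized reads at its depth (3 reads, counting error only). Without the 8 mice of low Rb1, the log2 fold change was -2.77 and the OIR p17 mean 4.98 ± 5.19 normalized reads (SD, n = 4).

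At p14, which the choice of the set did not use, Lpar3 did not pass the test. The nOIR p14 mice had 6.22, 18.3, 32.4, 38.5, 14.2 and 12.6 normalized reads, and the OIR p14 mice 1.14, 10.7, 1.01, 10.6, 12.6 and 11.5. Both ranges overlapped, with OIR p14 S1 and S3 at about 1 read each and the other 4 OIR p14 mice between the lowest and the median control. The log2 fold change was -1.43 (SE 0.64, 95% interval -2.69 to -0.17, adjusted p = 0.239 by limma with Benjamini-Hochberg adjustment over all genes tested). An exact permutation test (two-sided) gave p = 0.0628. Left-out nOIR p14 S4 had 1.98 normalized reads of Lpar3, fewer than any control included, and with it the log2 fold change was -1.05 (adjusted p = 0.439, over all alternatives 0.154 to 0.558). Between p14 and p17, the mean of Lpar3 was 1.56 times as high at the later age in nOIR mice and 0.61 times as high in OIR mice, with overlapping mice in both.

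**Figure D2:**
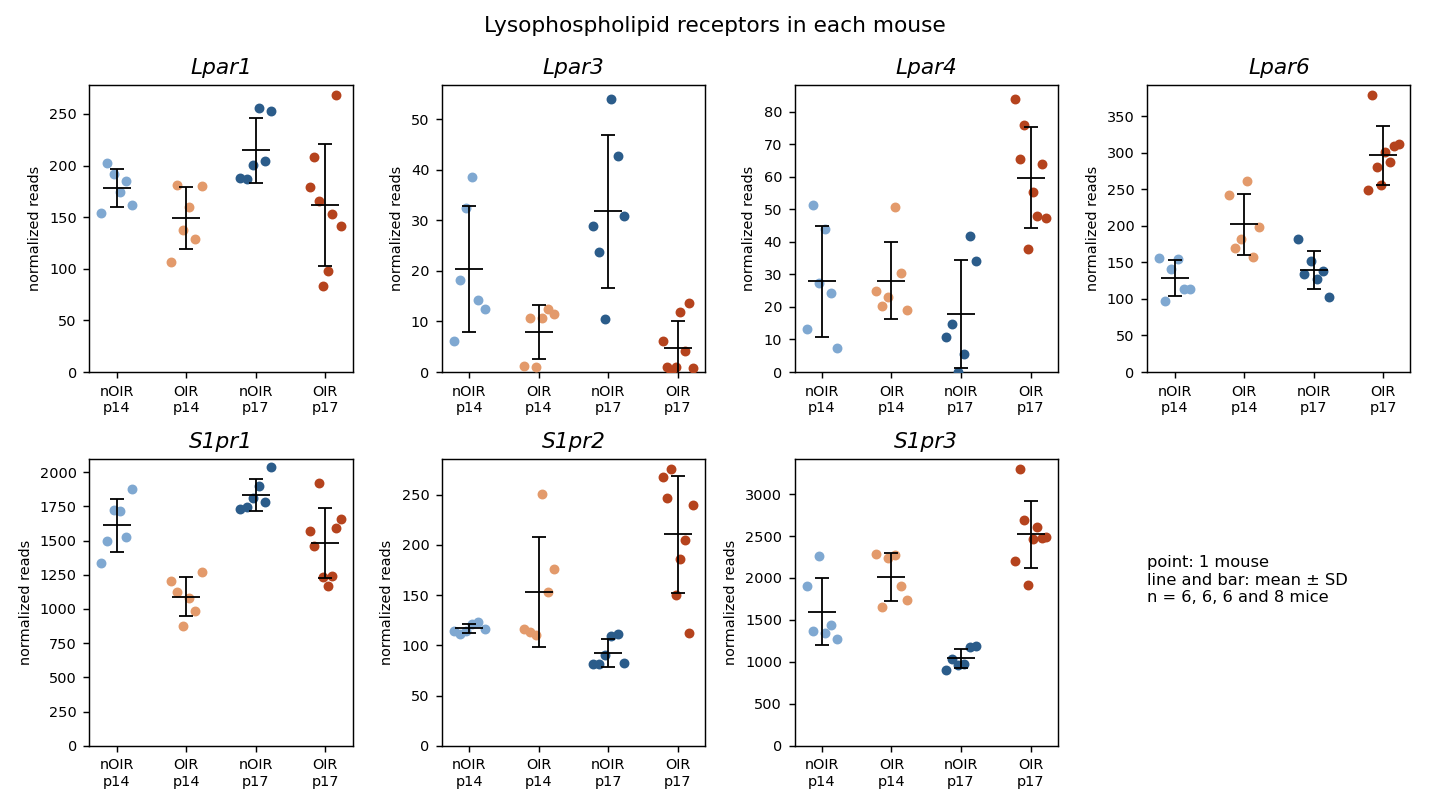
Normalized reads of each receptor in every mouse (1 point per mouse) for the 4 groups, with the mean and SD as lines (n = 6, 6, 6 and 8), on axes that start at 0. At p17, all OIR mice lie above all nOIR mice for Lpar6, S1pr2 and S1pr3, and 6 of 8 lie below all nOIR mice for Lpar3.

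At p14, 2 of the 7 receptors passed the test between OIR and nOIR retinas, S1pr1 in the downward and Lpar6 in the upward direction, while 6.09% of all genes tested did so. The same 2 were the receptors whose groups did not overlap, against 3.77% of all genes. Neither change came near the log2 fold change of 2 that defines a DEG.

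S1pr1, the endothelial S1P receptor, had 1339 to 1874 normalized reads in nOIR p14 mice (median 1620) and 876.3 to 1272 in OIR p14 mice (median 1102). Every OIR p14 mouse lay below every control. It fell by 0.57 on the log2 scale (SE 0.11, adjusted p = 0.00134 by limma). A two-sided exact permutation test gave p = 0.0022, the lowest value possible with 6 against 6 mice. Endothelial markers did not move in 1 direction at this age, since 2 of 12 passed higher and 1 lower, and their summed level was 11370 to 14750 normalized reads in nOIR p14 and 10040 to 15680 in OIR p14 mice. Müller glia markers passed lower for 5 and higher for 1 of 10 (summed level 98020 to 126200 against 84930 to 101800), and 1 of 9 rod markers passed lower (1258000 to 1583000 against 1005000 to 1340000). Ganglion cell markers passed lower for 3 of 10 (39900 to 48220 against 32350 to 35980) and amacrine markers for 3 of 9 (25700 to 30760 against 21000 to 24020), and neither sum overlapped between the groups. Of 10 pericyte and mural markers, 3 passed lower (Kcnj8 -1.72, Abcc9 -1.47 and Rgs5 -1.10 on the log2 scale) and 3 higher (Acta2 2.00, Tagln 1.23 and Des 1.04), with a summed level of 3856 to 4390 against 2338 to 4628. No marker of these 6 lists was at 0 in all mice, and their part in the S1pr1 value was not tested. Without the mice of low Rb1, S1pr1 stood at -0.45 (adjusted p = 0.0385, over all alternatives 6.41e-05 to 0.0385).

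Lpar6 had 96.9 to 155.4 normalized reads in nOIR p14 mice (median 127.3) and 157.0 to 261.7 in OIR p14 mice (median 190.5). The groups met within 2 normalized reads of each other but did not overlap. It rose by 0.64 on the log2 scale (SE 0.16, adjusted p = 0.0115 by limma; p = 0.0022 by the same exact test), and passed under every alternative tried (adjusted p 0.00115 to 0.0468). Astrocyte markers were in part higher in the same mice, as 3 of 6 passed. Their summed level was 1617 to 2467 normalized reads in nOIR p14 and 3637 to 10060 in OIR p14 mice. Most of that rise was Gfap (log2 fold change 3.23), and without it the sum was 1118 to 1492 against 1505 to 2326. The others that passed were Aldh1l1 (0.94) and Pdgfra (0.70). Of those that did not pass, Pax2 was at 0.76, S100b at -0.61 and Igf2bp3 at -0.13. Of 10 microglia and macrophage markers, 3 passed higher (2475 to 3225 against 2724 to 4085). No marker of either list was at 0 in all mice, and their part in the Lpar6 value was not tested. Rb1, within which Lpar6 lies, had a log2 fold change of 0.33 at p14 (SE 0.38, adjusted p = 0.757) and of -0.85 at p17 (SE 0.35, adjusted p = 0.126). With log2 Rb1 as a covariate, Lpar6 was at 0.64 at p14 and 1.09 at p17.

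The other 5 receptors did not pass at p14. S1pr3 was the nearest, with 1274 to 2265 normalized reads in nOIR p14 (median 1402) and 1650 to 2287 in OIR p14 mice (median 2071), a log2 fold change of 0.35 (SE 0.13, adjusted p = 0.131 by limma). Its highest control, nOIR p14 S3, lay amid the OIR mice, and without that mouse the value was 0.46 (adjusted p = 0.0254). S1pr2 was nearly level in nOIR p14 mice, at 111.5 to 123.1 normalized reads, but spread from 109.9 to 251.0 in OIR p14 mice. Of these, S1, S2 and S3 lay within or just below the control range and S4, S5 and S6 above it (log2 fold change 0.32, SE 0.21, 95% interval -0.08 to 0.72, adjusted p = 0.477). Without OIR p14 S4, which had the highest value, it was 0.17 (adjusted p = 0.780). For Lpar1, a receptor of neural and glial cells among others, the log2 fold change was -0.28 (SE 0.21, 95% interval -0.68 to 0.13, adjusted p = 0.560). For Lpar4 it was 0.19 (SE 0.59, adjusted p = 0.935), turning to -0.12 without nOIR p14 S7. An SE of this size leaves sizeable changes of Lpar4 undetectable at its depth of 7 to 57 reads per mouse.

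At p17, 3 of the 7 receptors (Lpar6, S1pr2 and S1pr3) had all OIR mice above all nOIR mice and none had all below, beside 3.9% and 1.98% of the genes tested. Since the set was chosen on this comparison, these counts are given as values alone. The median log2 fold change was 1.09 over the 7 receptors and -0.02 over all genes tested.

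S1pr3 had 905.8 to 1195 normalized reads in nOIR p17 (median 1002) and 1913 to 3302 in OIR p17 mice (median 2479). The lowest OIR mouse was thus well clear of the highest control. The mean was 2.42 times as high in OIR p17 mice and the log2 fold change was 1.27 (SE 0.12). S1pr2 had 81.1 to 111.3 normalized reads in nOIR p17 (median 86.6) and 112.5 to 275.8 in OIR p17 mice (median 222.3), a log2 fold change of 1.13 (SE 0.19). The separation of S1pr2 rested on about 1 normalized read, since OIR p17 S7 lay just above nOIR p17 S5. The other 7 OIR p17 mice had at least 149.9.

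Lpar6 had 103.1 to 182.1 normalized reads in nOIR p17 (median 136.0) and 248.9 to 378.6 in OIR p17 mice (median 294.1), 2.13 times the control mean, with a log2 fold change of 1.09 (SE 0.15). The OIR p17 mice of low Rb1 had 280.6, 287.4, 309.1 and 311.3 normalized reads of Lpar6 and lay inside the range of the other OIR p17 mice. Without them the log2 fold change was 1.08.

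Lpar4, which is X-linked, was higher at p17 by 2.42 on the log2 scale (SE 0.55), from 17.8 ± 16.5 (SD, n = 6) to 59.7 ± 15.6 normalized reads (SD, n = 8). The controls ranged from 0 to 41.7 normalized reads and the OIR p17 mice from 37.7 to 84.0. A single pair overlapped, as nOIR p17 S5 lay above OIR p17 S4. The control listed at 0, nOIR p17 S3, allows up to 2.88 normalized reads (3 reads, counting error only). By edgeR and DESeq2 on whole reads, the log2 fold change was 1.74 in both. Without nOIR p17 S3, it was 1.72 by limma, and the values without 1 mouse ran from there to 2.81 (without nOIR p17 S5). With a pseudocount of 0.1 the log2 fold change was 3.03. The plain ratio of the group means, which is not on the log2 scale, was 3.35. Xist exceeded 1000 normalized reads in 2 of 6 nOIR p17 and 4 of 8 OIR p17 mice, and with log2 Xist as a covariate Lpar4 stayed at 2.42.

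Lpar1 and S1pr1 were lower at p17 by small amounts, with overlapping mice. Lpar1 had 187.0 to 255.8 normalized reads in nOIR p17 (median 202.4) and 83.4 to 268.9 in OIR p17 mice (median 159.0), a log2 fold change of -0.48 (SE 0.19). Its lowest and its highest mouse were both OIR p17 mice, S4 and S7. S1pr1 had 1728 to 2040 normalized reads in nOIR p17 (median 1798) and 1171 to 1920 in OIR p17 mice (median 1516), a log2 fold change of -0.33 (SE 0.10). Only OIR p17 S3, a mouse of low Rb1, lay within the range of the controls. Without the mice of low Rb1, S1pr1 was at -0.44 and no longer overlapped.

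**Figure D3:**
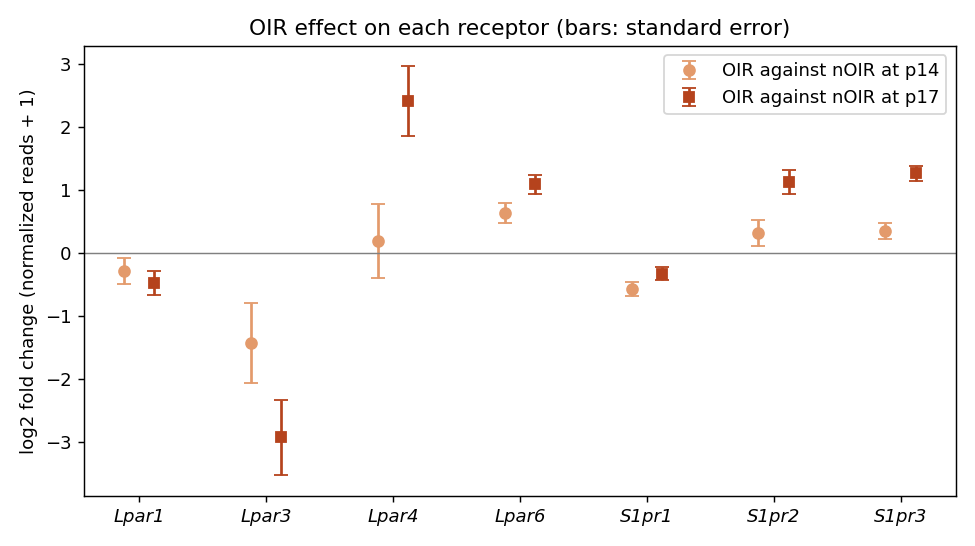
Log2 fold change of OIR against nOIR mice for each receptor at p14 (circles) and p17 (squares), on the scale of log2(normalized reads + 1), with standard errors as bars. Lpar4, Lpar6, S1pr2 and S1pr3 lie above 0 and Lpar1, Lpar3 and S1pr1 below 0 at both ages. The sign of Lpar4 at p14 depended on 1 mouse, nOIR p14 S7.

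Markers of vascular and immune cells were higher in OIR p17 retinas alongside Lpar4, Lpar6, S1pr2 and S1pr3, while Lpar1, Lpar3 and S1pr1 were lower. By limma, 10 of 12 endothelial, 10 of 10 pericyte and mural, 8 of 10 microglia and macrophage, 4 of 6 astrocyte and 5 of 5 red cell genes passed higher and none lower, where 7.39% of all genes tested passed higher and 5.12% lower. The summed endothelial level was 10050 to 11630 normalized reads in nOIR p17 and 14830 to 19310 in OIR p17 mice. For pericyte and mural markers it was 3156 to 3975 against 10400 to 16200. Microglia and macrophage markers summed to 2120 to 2435 against 3699 to 6516, astrocyte markers to 1635 to 2283 against 3838 to 11050, and red cell genes to 194.7 to 1191 against 1227 to 16980. No gene of these lists was at 0 in every mouse, and their part in the receptor values was not tested. Neuronal markers passed lower in part, with 6 of 10 ganglion cell, 7 of 9 bipolar, 4 of 9 amacrine, 2 of 9 rod and 2 of 6 horizontal cell genes. Müller glia markers passed lower for 5 and higher for 2 of 10. Their summed level was 106800 to 130500 normalized reads in nOIR p17 and 91170 to 137900 in OIR p17 mice.

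With age alone, between nOIR p14 and nOIR p17 retinas, 1 of the 6 receptors other than Lpar3 passed, beside 0.317% of all genes tested. S1pr3 fell by 0.59 on the log2 scale (SE 0.13, adjusted p = 0.0404 by limma), from 1274 to 2265 normalized reads at p14 to 905.8 to 1195 at p17. All p17 controls lay below all p14 controls. The call was narrow. It was lost when any of nOIR p14 S1, S3 or S6, nOIR p17 S1, S2, S3 or S4, or OIR p17 S6 or S7 was left out (adjusted p 0.0502 to 0.156), when all genes above 0 were tested (adjusted p = 0.0627), and without the mice of low Rb1 (log2 difference -0.68, adjusted p = 0.0974, over all alternatives 0.00308 to 0.156). S1pr2 also did not overlap, with 111.5 to 123.1 normalized reads at p14 and 81.1 to 111.3 at p17, but did not pass (log2 difference -0.34, SE 0.21, adjusted p = 0.809). The groups of 1.49% of all genes did not overlap. The other 4 had adjusted p of 0.726 to 0.952. By limma, 1 of 10 microglia and macrophage genes passed lower at p17 and 2 of 8 cone genes higher. Summed levels at p14 and p17 were 2475 to 3225 and 2120 to 2435 normalized reads for microglia and macrophage markers. Cone markers summed to 37780 to 58200 and 61990 to 81650. No endothelial (11370 to 14750 and 10050 to 11630) or pericyte and mural gene (3856 to 4390 and 3156 to 3975) passed. The part of these markers in the S1pr3 value was not tested.

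Between OIR p14 and OIR p17 retinas, S1pr1 and Lpar6 passed in the upward direction, 2 of the 6 receptors other than Lpar3, beside 5.91% of all genes tested. S1pr1 had 876.3 to 1272 normalized reads at p14 and 1171 to 1920 at p17, and rose by 0.43 on the log2 scale (SE 0.10, adjusted p = 0.00921 by limma). Lpar6 had 157.0 to 261.7 normalized reads at p14 and 248.9 to 378.6 at p17, and rose by 0.57 (SE 0.15, adjusted p = 0.0175). In both the ages overlapped slightly, and none of the 7 receptors was without overlap between the ages, while 1.8% of all genes were. Both calls were lost without the mice of low Rb1, which leaves 4 mice in each of these groups (S1pr1 0.21, adjusted p = 0.459, over all alternatives 0.00153 to 0.459; Lpar6 0.44, adjusted p = 0.370, over all alternatives 0.00248 to 0.370). The call of Lpar6 was also lost without OIR p14 S2 (adjusted p = 0.0503) or S5 (adjusted p = 0.0571). Fitted on these 2 groups alone, S1pr1 no longer passed (adjusted p = 0.0588) and Lpar4 did (adjusted p = 0.0245). The log2 difference was 0.47 for S1pr2 (SE 0.19, adjusted p = 0.175, and 0.0436 at 0.62 without OIR p14 S4), 0.32 for S1pr3 (SE 0.12, adjusted p = 0.143) and 1.10 for Lpar4 (SE 0.55, adjusted p = 0.288). Lpar1 was nearly level, at 0.06 (SE 0.19, 95% interval -0.32 to 0.44). Cell type markers moved between the same groups. By limma, 11 of 12 endothelial, 8 of 10 pericyte and mural, 6 of 10 microglia and macrophage and 5 of 5 red cell genes passed higher at p17, and 6 of 9 bipolar genes passed lower. Summed levels at p14 and p17 were 10040 to 15680 and 14830 to 19310 normalized reads for endothelial markers, 2338 to 4628 and 10400 to 16200 for pericyte and mural markers, and 2724 to 4085 and 3699 to 6516 for microglia and macrophage markers. Red cell genes summed to 214.6 to 848.0 and 1227 to 16980, and bipolar markers to 50880 to 60310 and 39830 to 46980. Müller glia markers passed higher for 3 of 10 (84930 to 101800 and 91170 to 137900) and cone markers for 3 of 8 (44910 to 65040 and 57310 to 91670). Of 9 rod markers, 2 passed higher and 1 lower (1005000 to 1340000 and 1115000 to 1804000). In addition, 1 of 6 astrocyte markers passed higher and 1 of 6 horizontal cell markers lower. No gene of these lists was at 0 in every mouse, and their part in the values of S1pr1 and Lpar6 was not tested.

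The other 4 receptors of both families were weakly detected. Lpar2 and S1pr4 had group means of 2.13 to 10.8 and 2.42 to 4.81 normalized reads, with mice at 0 in every group, and did not pass at either age. Lpar5 at p14 had 5.11 ± 4.82 normalized reads in the controls and 16.3 ± 5.63 in the OIR retinas (SD, 6 mice a group), and its log2 fold change was 1.96 (SE 0.63, adjusted p = 0.0631 by limma), and 0.14 at p17 (adjusted p = 0.930). S1pr5 at p17 had 16.7 ± 9.41 normalized reads in the 6 controls and 50.7 ± 24.0 in the 8 OIR retinas (SD). It rose by 1.59 on the log2 scale at p17 (SE 0.35, adjusted p = 0.00153 by limma), with overlapping mice. Without the mice of low Rb1 it was 1.10 and did not pass (adjusted p = 0.119, over all alternatives 0.000124 to 0.119).

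Among 46 other genes of LPA and S1P signalling, which include these 4 receptors, 4 passed higher and 2 lower in OIR retinas at p14 (3.18% and 2.91% of all genes). These 6 calls became 3 without nOIR p14 S5, 3 without nOIR p14 S7 and 2 without the mice of low Rb1. Sgpl1 and Sgpp2 passed under all 40 alternatives at p14 and Enpp2 under 39. Gna13 passed under 19 of 40, Plpp2 under 28 of 40 and Apom under 23 of 39. At p17, 9 passed higher and 6 lower (7.39% and 5.12% of all genes). The median log2 fold change over the 46 genes was -0.0016 at p14 and -0.09 at p17. In 3 of the 46 genes the OIR effect at p17 differed from that at p14 (limma), beside 1.58% of all genes tested.

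Of 10 genes listed for synthesis of the ligands, 1 passed lower at p14, and 1 higher and 1 lower at p17, beside the shares of all genes given above. Enpp2 encodes autotaxin, the secreted enzyme that releases LPA from lysophosphatidylcholine. It had 2304 to 3749 normalized reads in nOIR p14 (median 3334) and 1144 to 2598 in OIR p14 mice (median 1795), and then 2796 to 4946 in nOIR p17 (median 4037) and 1552 to 2611 in OIR p17 mice (median 1810). All OIR p17 mice lay below all nOIR p17 mice, whereas the p14 groups overlapped. Enpp2 fell by 0.84 at p14 (SE 0.17, adjusted p = 0.00166 by limma) and by 1.00 at p17 (SE 0.16, adjusted p = 2.79e-05) on the log2 scale. Without the mice of low Rb1 its p14 value was -0.52 and did not pass (adjusted p = 0.102, over all alternatives 0.000219 to 0.102). Pla1a, the 1 counted as higher at p17, is a secreted phospholipase that acts on phosphatidylserine, and whether it makes LPA here was not measured. It rose by 3.03 at p17 (SE 0.45, adjusted p = 9.08e-06), from 12.03 to 81.4 mean normalized reads with no overlap. The remaining 8 synthesis genes, among them both sphingosine kinases Sphk1 and Sphk2, did not pass at either age.

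Of 14 genes that break down LPA or S1P or belong to the same phosphatase families, 2 passed higher and 1 lower at p14, and 3 higher and 4 lower at p17, beside the same shares of all genes. Sgpl1, the lyase that ends S1P signalling by cleaving it, rose by 0.55 at p14 (SE 0.10, adjusted p = 0.000858 by limma) and by 0.48 at p17 (SE 0.10, adjusted p = 0.000656). Sgpp2, an S1P phosphatase, fell by 0.73 at p14 (SE 0.13, adjusted p = 0.000442) and by 0.68 at p17 (SE 0.12, adjusted p = 0.000146), with no overlap at either age. The lipid phosphate phosphatase Plpp1 rose by 0.58 at p17 (SE 0.11, adjusted p = 0.000515), and its relative Plpp2 rose by 0.30 at p14 (SE 0.09, adjusted p = 0.0357, over all alternatives 0.0125 to 0.167). The p14 call of Plpp2 was lost without any of nOIR p14 S1, S2, S5, S6 or S7 or OIR p14 S1, S2, S5 or S6. Without the mice of low Rb1, Plpp1 at p17 was 0.34 and did not pass (adjusted p = 0.0825). Plppr4, which is related in sequence to these phosphatases, fell by 0.30 at p17 (SE 0.08, adjusted p = 0.0124), but did not pass after quantile normalization (adjusted p = 0.0669) or scaling to the same total (adjusted p = 0.0569). The other genes of this list that passed at p17 were Plppr3 (log2 fold change 0.36), Plppr5 (-0.54) and the S1P phosphatase Sgpp1 (-0.76). Plppr3 and Sgpp1 passed under 25 of 40 alternatives each and Plppr5 under 36, and without the mice of low Rb1 none of these 3 passed (0.27, -0.24 and -0.27). Leaving out nOIR p17 S1, S3, S4 or S6 or OIR p17 S3 to S8 ended the call of Plppr3, and leaving out nOIR p17 S1, S2, S4 or S6 or OIR p17 S6, S7 or S8 that of Sgpp1.

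Among 13 genes for G proteins and their downstream effectors, 1 passed at p14 and 4 at p17, again beside 6.09% of all genes at p14 and, at p17, 7.39% higher and 5.12% lower. Gnai2, an inhibitory G protein subunit, rose at p17 from a mean of 7536 to 13191 normalized reads without overlap (log2 fold change 0.79, SE 0.09, adjusted p = 1.64e-07 by limma). Gna13, which couples receptors to small GTPases, rose by 0.29 at p14 (SE 0.09, adjusted p = 0.0446) and by 0.43 at p17 (SE 0.08, adjusted p = 0.000312), with no overlap at either age. Its p14 call was lost without any 1 of the nOIR p14 mice, without nOIR p17 S1, S3, S4 or S5, OIR p14 S3, S4 or S6, or OIR p17 S6, and without the mice of low Rb1 (adjusted p over all alternatives 0.0128 to 0.248). Gnai1 fell by 0.66 at p17 (SE 0.14, adjusted p = 0.000967), while Gnai3 rose by 0.34 (SE 0.09, adjusted p = 0.0122). Rhoa, Rock1 and Rock2 did not pass at either age. Of 5 genes for S1P export and carriage, 1 passed higher at each age (3.18% of all genes at p14 and 7.39% at p17). At p14 it was Apom, a carrier of S1P in blood, with 1.97 ± 2.66 normalized reads in nOIR and 10.3 ± 4.98 in OIR mice (SD, 6 mice a group), a log2 fold change of 2.21 (SE 0.66, adjusted p = 0.0393 by limma, over all alternatives 0.0175 to 0.217). Its call was lost by edgeR and DESeq2 and without any of nOIR p14 S1, S2, S3, S5 or S7 or OIR p14 S1, S4, S5 or S6. At p17 it was the exporter Abcc1, which rose by 0.60 (SE 0.14, adjusted p = 0.00221).

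**Figure D4:**
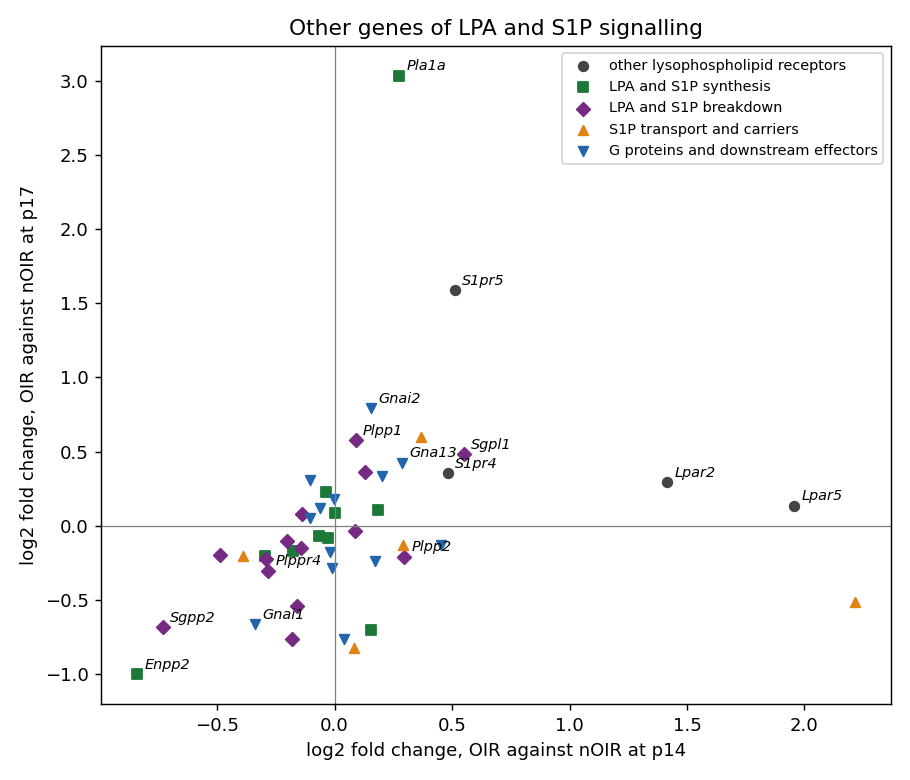
Log2 fold change of OIR against nOIR mice at p14 (horizontal) and at p17 (vertical) for 46 other genes of LPA and S1P signalling, by role. Enpp2 and Sgpp2 lie below 0 and Sgpl1 and Gna13 above 0 on both axes, and Pla1a, at 3.03, is the highest at p17.

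The genes whose course over the 26 mice was most like that of a receptor were found by the root mean square (RMS) difference of log2 values, each centred on its own mean, among genes that averaged 10 normalized reads or more. It is a description with no test, and noise sets a floor for it in genes of few reads. For Lpar3, whose own RMS deviation from its mean was 1.60, those among the nearest 5 that are given here were Cyp11a1 (RMS difference 1.09), A330049N07Rik (1.14), Vmn2r89 (1.17) and Esrp1 (1.17). Lpar4 was nearest to B3gnt3 (0.84) and Pcdh12 (0.86), Lpar6 to Sorbs3 (0.23) and Uaca (0.24), and S1pr3 to Wwtr1 (0.22) and Septin9 (0.23). For S1pr2 they were Cmtm6 and Fads3 (0.29 each) and for Lpar1 Lratd2 and Katnal2 (0.25 each). S1pr1 was nearest to Slc16a1 (0.15), whose mean was 12450 normalized reads in nOIR and 8975 in OIR retinas at p14, and 15250 and 12210 at p17.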

How the data were processed

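Each library was made from the retina or retinas of 1 mouse. Per the labels and the study's methods, the authors amplified cDNA with a SMARTer v4 kit, mapped reads with STAR 2.7.8a to Gencode M28, counted them with featureCounts 2.0.1 at default settings and deposited normalized reads, a signal made by dividing each mouse's counts by a DESeq2 1.34 size factor. The deposited table also holds the authors' log2 fold changes and adjusted p-values, which were not used. Whole reads were recovered by dividing each mouse's values by its smallest value above 0 (100% whole, tolerance 0.001). PCR copies were not removed, so floors cover counting error only. Of the 79 pairs of mice compared, none was a copy (chi-square per degree of freedom at least 9.39), and other pairs were not compared.

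The receptors, the gene lists and the tests were chosen with earlier results of these data known. After adding a pseudocount of 1, log2 values of genes with a mean of at least 1 were fitted with limma 3.58.1 (trend) in R 4.3.3 over 4 groups of 26 mice, with Benjamini-Hochberg adjustment over 27137 genes. A gene passed at an adjusted p under 0.05. Genes named are the 7 receptors, the other 4 receptors and Enpp2, up to 4 pathway genes per age and direction with the smallest adjusted p among those that passed at a mean of at least 10, and the nearest genes (5 for Lpar3, 2 for each other receptor), of which 1 for Lpar3 and 1 for S1pr1 are not reported here. Further pathway genes (Sphk1, Sphk2, Rhoa, Rock1, Rock2, Apom, Abcc1, Plppr3, Plppr5, Sgpp1 and Gnai3) and markers were named after their values were seen. The nOIR p14 mouse S4 was left out as the study's methods state. Exact permutation tests were run in scipy 1.17.1. Alternatives were edgeR 4.0.16, DESeq2 1.42.0, other filters, pseudocounts, scalings, covariates and samples. The procedure was tested on simulated data.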

Additional observations from a re-analysis of the deposited data

Results flagged for a closer look

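Among 28 groups of values of the 7 receptors tested for a sample standing apart, 1 was found, where chance gives about 1 in 20. Lpar4 in OIR p14 S4 had 50.6 normalized reads, whereas the other 5 OIR p14 mice had 18.9 to 30.4.

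The OIR effect differed between the ages in 3 of the 46 pathway genes by limma's test of the difference, adjusted over all genes tested, where 1.58% of all genes passed. The effect at p17 minus that at p14 was 0.64 on the log2 scale for Gnai2 (standard error, SE, 0.13, adjusted p = 0.00724), 2.76 for Pla1a (SE 0.65, adjusted p = 0.0214) and -0.50 for Plpp2 (SE 0.12, adjusted p = 0.0202). Gnai2 and Pla1a were higher at p17, with log2 fold changes of 0.15 and 0.28 at p14. Plpp2 was higher in OIR mice at p14 and stood at -0.21 at p17 (adjusted p = 0.0996). The difference was not tested for the 7 receptors, since the set was chosen on the comparison at p17.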

How the results depend on the processing

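Of 1348 values computed under alternatives for the receptors and counts, 1297 kept their direction and call or stayed within 1.5 times the count. At p14, S1pr1 and Lpar6 kept their calls under all 40 alternatives, and 3 receptors passed without nOIR p14 S3. At p17, 3 or 4 receptors did not overlap. The log2 fold change of Lpar3 ranged from -1.70 to -1.03 at p14 and from -3.71 to -2.65 at p17. The 1 receptor that changed in nOIR mice with age became 0 with all genes above 0, with the replicate number as a block and without the mice of low Rb1 (0 to 1 when 1 mouse was left out). The 2 that changed in OIR mice with age became 0 under the block and without the mice of low Rb1 (1 to 3 when 1 mouse was left out). The 6 pathway genes of p14 became 3 with all genes above 0 and under the block, and 2 without the mice of low Rb1 (3 to 7 when 1 mouse was left out). The causes were not tested, and where mice were left out the fits also had fewer mice. Same-numbered mice did not deviate together (median correlation 0.0031 over 34 pairs), and 5 of 26 mice matched their own number best, so the number is no pairing. Lpar1 between OIR p14 and OIR p17 turned to -0.030 after quantile normalization, -0.084 with the Xist and -0.0020 with the Cryaa covariate and -0.22 without the mice of low Rb1, and ranged from -0.058 to 0.18 when 1 mouse was left out (below 0 without OIR p14 S1, OIR p17 S2 or OIR p17 S7). Lpar4 at p14 ranged from -0.12 (without nOIR p14 S7) to 0.41 when 1 mouse was left out. Lpar3 and Lpar4 had at most 79 reads per mouse, so depth limits them most.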
